A study of Mus musculus with 24 samples.

Results

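Vhl-line mouse embryonic fibroblasts (MEFs) and wild-type (WT) MEFs were each given Cre or GFP, and the measurement described here is how much larger or smaller the effect of Cre was in the Vhl line. For every gene it is the Cre effect in Vhl cells (Vhl Cre over Vhl GFP) minus the Cre effect in WT cells (WT Cre over WT GFP), on the log2 scale. It uses 12 of the 24 libraries of the series, 3 in each of the 4 groups: Vhl Cre, Vhl GFP, WT Cre and WT GFP. A positive difference means that Cre raised the gene more, or lowered it less, in Vhl cells than in WT cells. No group had neither Cre nor GFP, so an effect of Cre and an opposite effect of GFP cannot be told apart. The other 12 libraries come from a Rassf1a line and a Vhl/Rassf1a line, treated in the same way. Vhl GFP cells carry the Vhl line's genotype without Cre, and WT Cre cells have Cre in a wild-type genome, although their treatment label reads KO like that of the other Cre groups. The fibroblasts were isolated from E13.5 embryos, and bulk RNA was sequenced. The labels name neither the vector that carried Cre or GFP, nor the Vhl exons flanked for deletion, nor the number of embryos or cultures behind the 3 libraries of a group. If the 3 share a culture, the p-values speak only of variation among these libraries, possibly of technical origin. The series' design note speaks of kidney proximal tubule cells, whereas every label of these libraries says MEFs.

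The von Hippel-Lindau protein is the substrate-binding subunit of a ubiquitin ligase. It binds the hypoxia-inducible factor (HIF) alpha subunits after prolyl hydroxylases of the Egln family have modified them in the presence of oxygen, and the bound subunits are degraded. Without it, HIF alpha subunits pair with Arnt and drive genes of glucose uptake, glycolysis, angiogenesis, pH control and oxygen sensing, and loss of VHL is a common first step of clear cell renal cell carcinoma. Cre recombinase cuts out DNA between loxP sites, and it can affect cells that have none. A wild-type line with Cre, set against the same line with GFP, shows how Cre and GFP cells differ without the deletion.

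Total counts ran between 29934173 and 43454843 reads per library over the 12, with 35034266 to 43234172 in Vhl Cre, 34715194 to 43454843 in Vhl GFP, 34734254 to 38789701 in WT Cre and 29934173 to 43260693 in WT GFP. Of 17 fibroblast markers 16 were at 1 CPM (read counts scaled to library size) or more in at least 1 library. Their summed level was 48462 to 51916 CPM in Vhl Cre, 58781 to 61159 CPM in Vhl GFP, 43409.6 to 46600.5 CPM in WT Cre and 41228 to 44376 CPM in WT GFP. Of 12 markers of kidney proximal tubule, 8 were below 1 CPM in all 12 libraries. Of 12 macrophage markers 9, and of 9 erythroid markers all, were below that level. Summed epithelial markers were at 142 to 162 CPM in Vhl Cre, 48.2 to 73.1 CPM in Vhl GFP, 78.2 to 93.8 CPM in WT Cre and 87.9 to 111 CPM in WT GFP. Summed skeletal muscle markers were at 389 to 466 CPM in Vhl Cre, 138 to 156 CPM in Vhl GFP, 202 to 247 CPM in WT Cre and 221 to 275 CPM in WT GFP, so that both sums were highest in Vhl Cre and lowest in Vhl GFP. Xist, the RNA that coats the inactive X chromosome of females, averaged 171 CPM in Vhl Cre, 262 CPM in Vhl GFP, 158 CPM in WT Cre and 155 CPM in WT GFP. The part that these cell mixtures play in the differences below was not tested, and in bulk RNA fewer cells of a type and less RNA per cell cannot be told apart.

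The targeted gene was checked first. Vhl lies on chromosome 6 (chr6:113623959-113631633, GRCm38). It had 2.54, 2.34 and 2.85 CPM in the Vhl Cre libraries, against 25.7, 27.6 and 26.8 CPM in Vhl GFP. It had 22.7, 24.0 and 24.4 CPM in WT Cre, against 22.5, 24.4 and 23.1 CPM in WT GFP. All 3 Vhl Cre libraries were far below every other library, and the Cre effect in the WT line was 0.02 ± 0.09 (log2, SE). The difference of Cre effects at Vhl was -3.40 ± 0.14 (SE), with an edgeR adjusted p of 3.49e-14. Of 28 tested genes within 1 Mb of Vhl, 3 were higher and 3 were lower in that difference, 21.4% of them, against 23.2% of all tested genes.

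The difference passed the threshold (adjusted p of 0.05, edgeR quasi-likelihood test) for 3846 of 16573 tested genes, 23.2%. Of these, 1773 were higher (10.7%) and 2073 lower (12.5%), and the median over all tested genes was -0.01. The 10.7% higher and 12.5% lower are the shares against which each list count of the difference below is to be read. A change of at least 2-fold was reached by 579 of the higher genes (3.49% of all tested) and by 430 of the lower genes (2.59%). The Cre effect in Vhl cells alone passed the threshold for 5991 genes (36.1%), 2884 of them higher (17.4%) and 3107 lower (18.7%), and the Cre effect in WT cells for 209 genes (1.26%), 138 of them higher (0.833%) and 71 lower (0.428%). The WT count fell whichever single WT library was left out, least without WT GFP replicate 2, to 113 higher and 65 lower genes. The 138 and 71 became 51 and 36 once WT GFP replicate 1 was left out, 56 and 43 once replicate 3 of the same group was left out, 63 and 38 once WT Cre replicate 3 was left out, and the higher count became 75 once WT Cre replicate 2 was left out. The 2 lines also differed without Cre, with 5319 genes (32.1%) past the threshold between Vhl GFP and WT GFP, 17.2% higher and 14.9% lower in Vhl GFP. With Cre, 7413 genes (44.7%) passed it between Vhl Cre and WT Cre, 22.8% higher and 21.9% lower in Vhl Cre. These comparisons share libraries with the difference of Cre effects and are given beside it as its components. Among the genes with a higher difference, the median size of the Cre effect was 0.60 on the log2 scale in Vhl cells and 0.09 in WT cells. Among those with a lower difference it was 0.52 in Vhl cells and 0.08 in WT cells. The Vhl effect was the larger in size for 1691 of the 1773 higher genes (95.4%), 1944 of the 2073 lower genes (93.8%) and 74.6% of all tested genes.

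**Figure D1:**
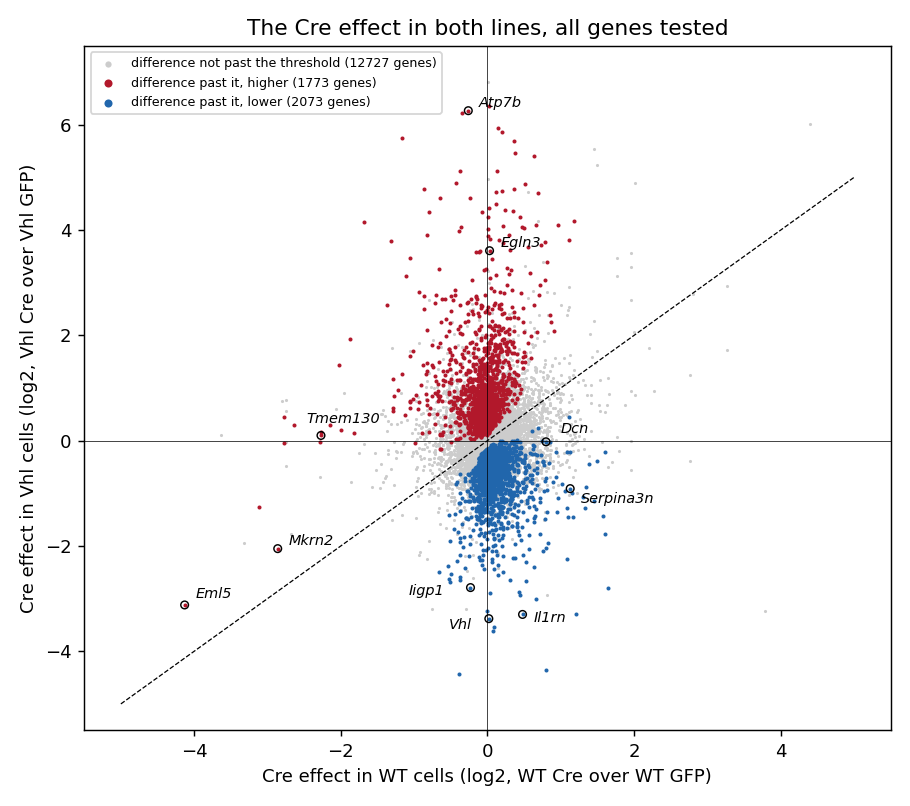
The Cre effect in Vhl cells (vertical axis, log2) against the Cre effect in WT cells (horizontal axis, log2), 1 point per tested gene; 7 genes lie outside the axes. Red and blue points are the 1773 and 2073 genes whose difference was higher or lower, grey points the rest, and the dashed line marks equal effects. Most coloured points stretch along the vertical axis. Eml5 and Mkrn2 were lower with Cre than with GFP in both lines, and Tmem130 and Dcn differed between WT Cre and WT GFP.

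Most genes of glucose uptake and glycolysis were higher. Of 28 tested members, 21 were higher and 1 was lower (percent called over all genes 10.7% higher, 12.5% lower). The list's median was 1.02 in the difference, 0.99 in the Cre effect of Vhl cells and -0.01 in that of WT cells. It was -0.03 between Vhl GFP and WT GFP, where 17.2% of all tested genes were higher and 14.9% lower. Pgk1, which encodes the glycolytic phosphoglycerate kinase, had 1358, 1417 and 1323 CPM in Vhl Cre, against 454, 435 and 483 CPM in Vhl GFP. It had 513, 539 and 507 CPM in WT Cre, against 517, 516 and 499.7 CPM in WT GFP. Every Vhl Cre library stood above all libraries of the other groups, and the difference was 1.56 ± 0.06 (SE; edgeR adjusted p = 1.79e-14). Pfkp, the platelet-type phosphofructokinase, averaged 315 ± 10.2 CPM in Vhl Cre, 77.9 ± 1.17 CPM in Vhl GFP, 70.6 ± 3.01 CPM in WT Cre and 71.5 ± 2.04 CPM in WT GFP (SD, n = 3 each). Its difference was 2.03 ± 0.07 (SE). Slc2a1, the glucose transporter GLUT1, averaged 473 ± 8.44 CPM in Vhl Cre, 147 ± 6.34 CPM in Vhl GFP, 181 ± 13.4 CPM in WT Cre and 181 ± 4.35 CPM in WT GFP (SD, n = 3 each), a difference of 1.69 ± 0.08 (SE). Here Vhl GFP began below both WT groups. Aldoc, an aldolase isoform, had a larger difference of 2.84 ± 0.16 (SE) at a low level, with a mean of 25.7 CPM in Vhl Cre and 2.69 to 3.44 CPM in the other groups. Pdk1, the kinase that keeps pyruvate out of the mitochondrial cycle, had a difference of 1.95 ± 0.09 (SE).

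Glycogen genes were higher in part. Of 13 tested members 7 were higher and 2 lower, with a median of 0.90 in the difference, 0.56 in Vhl cells and 0.03 in WT cells. Pygl, the liver-type glycogen phosphorylase that releases glucose units, averaged 118 CPM in Vhl Cre, 16.6 CPM in Vhl GFP, 12.6 CPM in WT Cre and 11.2 CPM in WT GFP, a difference of 2.66 ± 0.09 (SE; edgeR adjusted p = 4.93e-15). Gys1, the glycogen synthase that works in the opposite sense, averaged 315 CPM in Vhl Cre, 113 CPM in Vhl GFP and 106 CPM in each WT group, a difference of 1.48 ± 0.08 (SE). An enzyme of glycogen synthesis and one of its breakdown were thus both higher.

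Mitochondrial genes known from hypoxia gave some of the largest values. Of 16 tested members of that list 9 were higher and 1 lower, with a median of 1.03 in the difference, 1.15 in Vhl cells and 0.03 in WT cells. Cox4i2, the isoform of a cytochrome c oxidase subunit that replaces Cox4i1 at low oxygen, had 33.6, 34.7 and 36.5 CPM in Vhl Cre, against 1.74, 1.50 and 1.90 CPM in Vhl GFP. It had 1.60, 2.08 and 1.56 CPM in WT Cre, against 1.77, 2.19 and 1.51 CPM in WT GFP. The Vhl Cre libraries stood above all others, and the difference was 4.41 ± 0.20 (SE; edgeR adjusted p = 1.66e-13). Mgarp, a mitochondrial outer membrane protein, averaged 41.6 CPM in Vhl Cre and 1.42 to 1.64 CPM in the other 3 groups, a difference of 4.53 ± 0.20 (SE). Ndufa4l2, a HIF target related to a respiratory chain subunit, had a difference of 4.13 ± 0.24 (SE). Bnip3, a receptor for the removal of mitochondria, averaged 472 CPM in Vhl Cre, 87.9 CPM in Vhl GFP, 68.8 CPM in WT Cre and 67.7 CPM in WT GFP, a difference of 2.40 ± 0.14 (SE). By contrast, 2 of 36 tested nuclear-encoded subunits of oxidative phosphorylation passed the threshold, both lower (5.56% against 23.2% of all tested genes), and the median of that list was -0.08; with a correction for GC content 9 were lower. The 13 mitochondrially encoded genes had a median of -0.76, and 2 of them passed, both lower, mt-Cytb at -0.85 ± 0.23 (SE; edgeR adjusted p = 0.00918) and mt-Co2 at -0.93 with an edgeR adjusted p of 0.0143. That count was 10 when only the 12 libraries entered the fit, 10 with the GC correction and 11 with no filter on low counts. Few reads were counted for mt-Co2. It averaged 6.88 CPM in Vhl/Rassf1a Cre, where mt-Co1 averaged 3976 CPM, and the cause of this gap was not tested.

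The promoters of the 2 members with the smallest p of each of these lists that the RefSeq table holds (build GRCm38.p6, 250 bases before to 50 after the start of the gene) are shown because these genes moved together. Capitals mark the core of the hypoxia response element, searched as ACGTG and GCGTG on both strands; ACGTG overlaps the E-box CACGTG.
Pfkp (chr13:6648722-6649021, minus strand): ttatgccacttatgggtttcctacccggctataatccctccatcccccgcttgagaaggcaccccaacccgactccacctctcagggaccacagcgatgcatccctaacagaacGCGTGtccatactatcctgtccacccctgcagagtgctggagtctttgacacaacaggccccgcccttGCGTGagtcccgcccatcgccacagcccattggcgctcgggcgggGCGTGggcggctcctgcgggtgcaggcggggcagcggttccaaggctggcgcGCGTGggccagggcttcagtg
Pgk1 (chrX:106186850-106187149, plus strand): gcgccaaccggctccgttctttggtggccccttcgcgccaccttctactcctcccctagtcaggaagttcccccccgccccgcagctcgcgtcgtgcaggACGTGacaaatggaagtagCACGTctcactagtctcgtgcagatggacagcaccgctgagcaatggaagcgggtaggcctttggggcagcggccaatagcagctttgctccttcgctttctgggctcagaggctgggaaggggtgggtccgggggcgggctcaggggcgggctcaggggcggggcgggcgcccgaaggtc
Higd1a (chr9:121857747-121858046, minus strand): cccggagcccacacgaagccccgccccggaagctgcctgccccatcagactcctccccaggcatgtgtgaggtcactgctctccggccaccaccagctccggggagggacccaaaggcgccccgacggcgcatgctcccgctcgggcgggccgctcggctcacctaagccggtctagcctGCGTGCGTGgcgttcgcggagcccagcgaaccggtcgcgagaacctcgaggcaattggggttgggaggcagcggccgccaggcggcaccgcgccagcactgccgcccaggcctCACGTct
Mgarp (chr3:51396498-51396797, minus strand): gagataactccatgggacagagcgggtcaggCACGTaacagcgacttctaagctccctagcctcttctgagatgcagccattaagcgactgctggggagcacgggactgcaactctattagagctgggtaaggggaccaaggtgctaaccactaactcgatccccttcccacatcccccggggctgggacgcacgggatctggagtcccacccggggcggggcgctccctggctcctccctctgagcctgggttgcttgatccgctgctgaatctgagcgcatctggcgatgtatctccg

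Pfkp held 4 such matches, Pgk1 2, Higd1a 3 and Mgarp 1. Of the 16572 symbols tested, 11564 matched a promoter in the table, and 61.7% of these promoters held at least 1 match. The share was 63.9% for the higher genes, 57.7% for the lower genes, 18 of 26 glycolytic promoters (69.2%), 9 of 11 mitochondrial ones (81.8%) and 26 of 29 of the other hypoxia-responsive genes (89.7%). It was 22 of 32 (68.8%) for the mitotic list, which was lower, about the share of the glycolytic list. A match is a description of the letters, not a binding site.

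Of 15 tested members of the oxygen sensing list, which holds the hydroxylases, the HIF subunits and the ligase, 2 were higher and 4 lower, Vhl among the lower ones. That is 40% of them, against 23.2% of all tested genes, and the median was 0.00. Egln3, a prolyl hydroxylase and HIF target, had 204, 209 and 198 CPM in Vhl Cre, against 16.1, 16.9 and 16.9 CPM in Vhl GFP. It had 24.2, 22.8 and 24.2 CPM in WT Cre, against 24.3, 23.1 and 22.4 CPM in WT GFP. The gene began lower in the Vhl line (log2 -0.48 between the GFP groups) and ended far above the WT line, with a difference of 3.58 ± 0.09 (SE; edgeR adjusted p = 7.53e-18), the smallest p of all tested genes. Egln1, the main prolyl hydroxylase of the HIF pathway, averaged 282 CPM in Vhl Cre, 75.5 CPM in Vhl GFP, 71.8 CPM in WT Cre and 70.6 CPM in WT GFP, a difference of 1.88 ± 0.06 (SE). Egln2 had 44.0 CPM in Vhl Cre, 46.0 CPM in Vhl GFP, 40.4 CPM in WT Cre and 45.1 CPM in WT GFP, and its difference of 0.09 ± 0.15 (SE) did not pass the threshold.

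The messenger RNA of Hif1a, the alpha subunit that the ligase targets, was lower. It had 82.5, 78.9 and 76.3 CPM in Vhl Cre, against 202, 192 and 194 CPM in Vhl GFP. It had 189, 177 and 204 CPM in WT Cre, against 187, 187 and 165 CPM in WT GFP. No Vhl Cre library overlapped another group, and the difference was -1.39 ± 0.14 (SE; edgeR adjusted p = 1.6e-07). Arnt2, a partner subunit, averaged 15.4 CPM in Vhl Cre, 33.4 CPM in Vhl GFP and 20.0 CPM in each WT group, a difference of -1.12 ± 0.11 (SE). For this gene the Vhl line began above the WT line and ended below it. Arnt was at -0.21 ± 0.06 (SE; edgeR adjusted p = 0.0106), a call that was lost when no filter on low counts was used (adjusted p = 0.207). Epas1, which encodes HIF-2 alpha, was at -0.24 ± 0.12 (SE; edgeR adjusted p = 0.18) and did not pass.

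**Figure D2:**
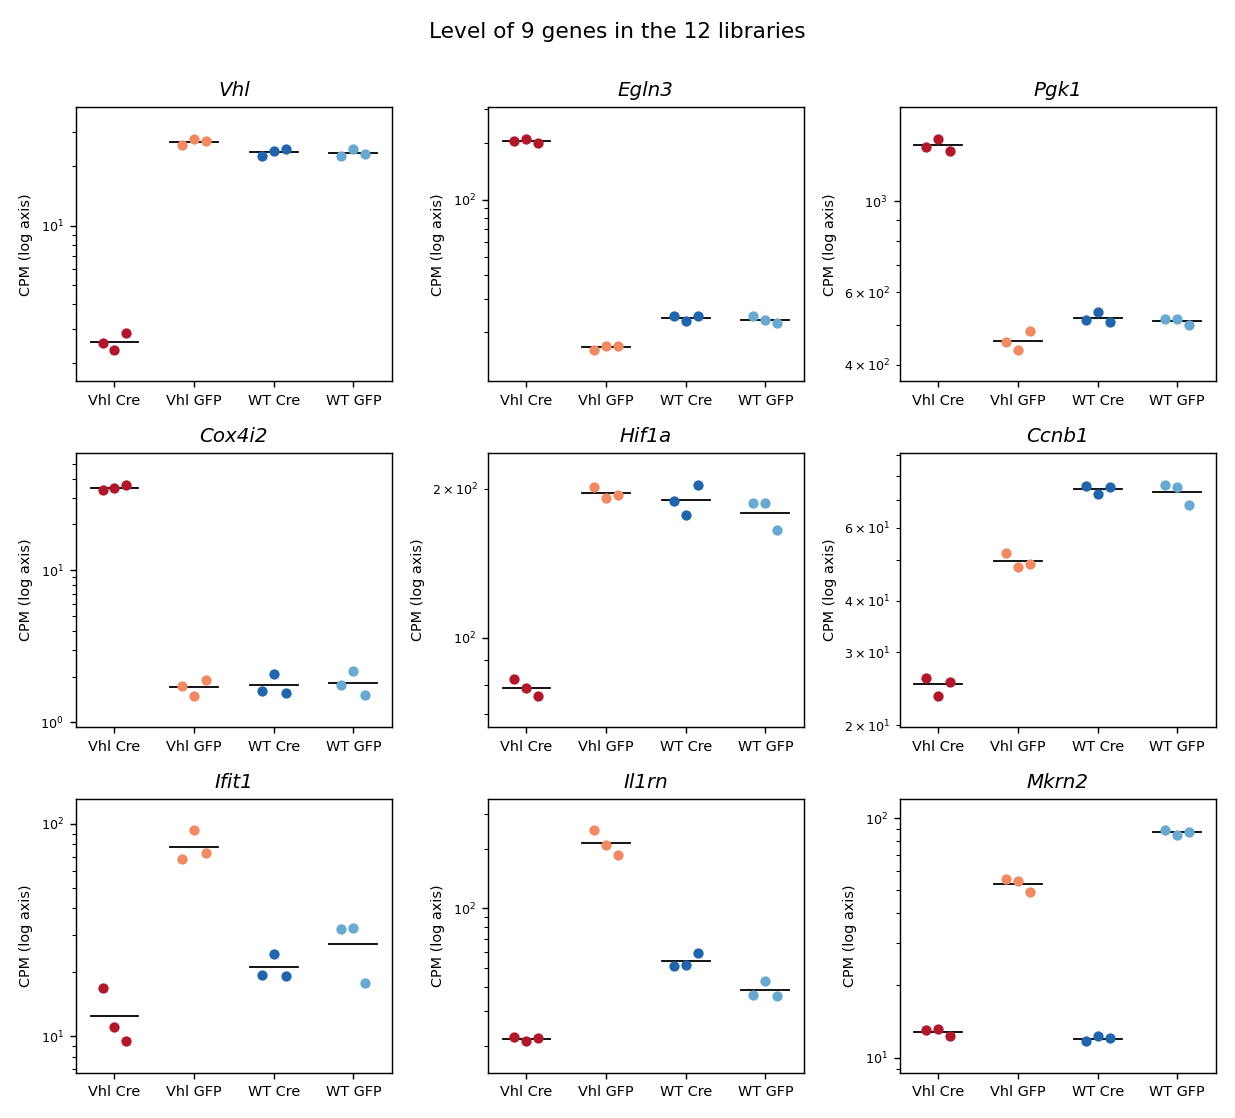
Level of 9 genes in CPM (log axes) in each of the 12 libraries; points are libraries, bars are group means. Egln3, Pgk1 and Cox4i2 are high in Vhl Cre alone, Hif1a and Ccnb1 are lowest there, Ifit1 and Il1rn are highest in Vhl GFP, and Mkrn2 is at about 12 to 13 CPM in both Cre groups with unequal GFP groups.

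Among the remaining hypoxia-responsive genes 31 of 39 tested were higher and 2 lower, with a median of 1.05. Vldlr, a lipoprotein receptor, averaged 176 CPM in Vhl Cre, 29.8 CPM in Vhl GFP, 30.7 CPM in WT Cre and 32.3 CPM in WT GFP, a difference of 2.63 ± 0.10 (SE). Ak4, a mitochondrial adenylate kinase, had a difference of 2.08 ± 0.08 (SE), and the growth-arrest gene Ndrg1 was at 2.22. Of 10 tested genes of pH control 4 were higher and 1 lower. Car9, a cell-surface carbonic anhydrase and marker of clear cell renal carcinoma, had 68.1, 68.3 and 68.0 CPM in Vhl Cre and a mean of 2.56 CPM in Vhl GFP, 3.18 CPM in WT Cre and 2.95 CPM in WT GFP. Its difference was 4.60 ± 0.19 (SE; edgeR adjusted p = 3.62e-14). Car12, its relative, was at 2.68 ± 0.09 (SE), and Slc16a3, the lactate exporter MCT4, at 1.65. Of 23 tested JmjC demethylases and Tet enzymes, which like the Egln enzymes use oxygen and 2-oxoglutarate, 7 were higher and 1 lower (34.8% called, against 23.2% of all tested genes), with a median of 0.16. Jmjd6 was at 0.98 ± 0.07 (SE) and Kdm3a, a histone H3 lysine demethylase, at 0.82 ± 0.09 (SE).

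Secreted vascular factors were mixed, with 8 of 22 tested members higher and 5 lower (10.7% and 12.5% of all tested genes) and a median of 0.12. Vegfa, the main growth factor of blood vessels, averaged 358 ± 10.1 CPM in Vhl Cre, 173 ± 5.24 CPM in Vhl GFP, 145 ± 6.49 CPM in WT Cre and 137 ± 1.49 CPM in WT GFP (SD, n = 3 each), a difference of 0.97 ± 0.08 (SE; edgeR adjusted p = 3.01e-09). Apln, the ligand of the apelin receptor, had 92.7, 97.8 and 94.7 CPM in Vhl Cre, against 19.0, 22.7 and 25.0 CPM in Vhl GFP. It had 41.5, 40.8 and 34.7 CPM in WT Cre, against 55.2, 52.3 and 61.7 CPM in WT GFP. Cre thus moved Apln up in Vhl cells and down in WT cells, without overlap in either line, and the difference of 2.62 ± 0.13 (SE) exceeded the Vhl effect of 2.09. Stc2, a secreted stanniocalcin, was at 2.88 ± 0.11 (SE), the vasoconstrictor gene Edn1 at 2.17 ± 0.18 (SE) and Pgf, the placental growth factor, at 2.49 ± 0.23 (SE).

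The gene with the highest named value was Atp7b, a copper-transporting ATPase (chr8:21992785-22060305, GRCm38). It had 24.4, 22.4 and 24.1 CPM in Vhl Cre, against 0.348, 0.155 and 0.399 CPM in Vhl GFP. It had 0.314, 0.390 and 0.334 CPM in WT Cre, against 0.461, 0.378 and 0.403 CPM in WT GFP. All 3 Vhl Cre libraries stood far above the rest, where the gene was barely detected, and the difference was 6.53 ± 0.46 (SE; edgeR adjusted p = 4.55e-10). The list of copper and iron genes as a whole was not so shifted, with 4 of 18 tested members higher, 3 lower and a median of -0.01. The metallothionein gene Mt1 was at 0.85 ± 0.16 (SE), and Hmox1, which breaks down haem, was at 0.70.

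Next came H2-Ab1, the beta chain of an MHC class II molecule that presents antigen on immune cells. It had 42.6, 45.1 and 46.0 CPM in Vhl Cre, against 0.813, 1.09 and 0.680 CPM in Vhl GFP. It had 0.571, 0.832 and 0.725 CPM in WT Cre, against 0.507, 0.567 and 0.605 CPM in WT GFP. The gene was near the limit of detection outside Vhl Cre, and the difference was 5.34 ± 0.37 (SE; edgeR adjusted p = 4.07e-10). The other class II genes did not share its level. H2-Aa, the alpha chain, averaged 1.33 CPM in Vhl Cre, 0.135 CPM in Vhl GFP, 0.0924 CPM in WT Cre and 0.0720 CPM in WT GFP. Its call at 2.91 ± 0.95 (SE; edgeR adjusted p = 0.0285) was lost on leaving out replicate 1 of Vhl GFP, 2 of WT Cre, 1 of WT GFP or 3 of WT GFP, where the adjusted p was 0.0556, 0.064, 0.266 and 0.101. Ciita, the transactivator of class II genes, stayed at a mean of 0.174 to 0.326 CPM in all 4 groups and did not pass (edgeR adjusted p = 0.99). The summed level of the 12 macrophage markers was 7.09 to 7.22 CPM in Vhl Cre, 7.21 to 7.84 CPM in Vhl GFP, 7.02 to 7.99 CPM in WT Cre and 7.23 to 8.30 CPM in WT GFP, without a gap between the groups. Of the MHC class I genes, H2-Q7 was at 3.32 ± 0.27 (SE) and H2-Q6 at 2.89 ± 0.39 (SE), near-identical copies between which counting can split reads.

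Division genes were lower almost without exception. Of 37 tested genes of mitosis and the spindle 36 were lower and 1 did not pass, with a median of -0.81 (the median of all tested genes was -0.01, and 12.5% of them were lower). The median was -0.79 in the Cre effect of Vhl cells and 0.02 in that of WT cells. All 37 were also lower in Vhl GFP than in WT GFP, with a median of -0.50, and with Cre the gap between the lines widened to -1.31. Ccnb1, cyclin B1, which drives entry into mitosis, had 26.0, 23.6 and 25.5 CPM in Vhl Cre, against 52.1, 48.3 and 49.1 CPM in Vhl GFP. It had 75.8, 72.2 and 75.0 CPM in WT Cre, against 76.2, 75.0 and 68.0 CPM in WT GFP. The 2 Vhl groups overlapped neither each other nor the WT groups, the WT groups overlapped, and the difference was -1.02 ± 0.08 (SE; edgeR adjusted p = 1.53e-09). Ccnb2, cyclin B2, averaged 11.7 CPM in Vhl Cre, 24.6 CPM in Vhl GFP, 38.0 CPM in WT Cre and 36.9 CPM in WT GFP, a difference of -1.11 ± 0.09 (SE). Bub1b, a kinase of the spindle checkpoint, was at -0.91 ± 0.07 (SE) with the same order of groups.

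Replication and repair genes followed with smaller values. Of 38 tested DNA replication genes 18 were lower and 1 higher, with a median of -0.30, and 28 were already lower in Vhl GFP than in WT GFP. Mcm10, a DNA replication factor, averaged 8.24 CPM in Vhl Cre, 13.3 CPM in Vhl GFP, 18.6 CPM in WT Cre and 19.4 CPM in WT GFP, a difference of -0.64 ± 0.10 (SE; edgeR adjusted p = 2.77e-05). Of 38 tested Fanconi, recombination and checkpoint genes 13 were lower and the rest did not pass, with a median of -0.31, and 21 were lower with a correction for GC content. Fanci, a partner in the repair of cross-linked DNA, averaged 3.72 CPM in Vhl Cre, 8.11 CPM in Vhl GFP and 10.3 CPM in each WT group, a difference of -1.13 ± 0.14 (SE). Fancd2, its partner, was at -0.74 ± 0.12 (SE). Fancd2 lies within 1 Mb of Vhl and was already lower in Vhl GFP than in WT GFP (log2 -0.55). Of 32 p53 targets and CDK inhibitors 11 were lower and 2 higher (40.6% called, against 23.2% of all tested genes). With the GC correction 17 were lower and 4 higher, while the counts over all tested genes rose to 2667 higher and 2798 lower. Ccnd1, cyclin D1, was at -0.63 and Btg2, an antiproliferative p53 target, at -0.57, while the CDK inhibitor gene Cdkn1c was at 0.93.

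The promoters of the 2 mitotic genes with the smallest p are shown with the cell cycle homology region, a word bound by the DREAM complex, searched as TTTGAA on both strands and set in capitals.
Ccnb1 (chr13:100786437-100786736, minus strand): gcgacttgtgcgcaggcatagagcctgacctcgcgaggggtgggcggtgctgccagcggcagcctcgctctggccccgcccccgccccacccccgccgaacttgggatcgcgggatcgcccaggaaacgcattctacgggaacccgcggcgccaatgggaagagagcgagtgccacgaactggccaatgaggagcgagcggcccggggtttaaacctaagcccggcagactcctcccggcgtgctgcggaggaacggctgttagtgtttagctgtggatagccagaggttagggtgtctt
Ccnb2 (chr9:70421505-70421804, minus strand): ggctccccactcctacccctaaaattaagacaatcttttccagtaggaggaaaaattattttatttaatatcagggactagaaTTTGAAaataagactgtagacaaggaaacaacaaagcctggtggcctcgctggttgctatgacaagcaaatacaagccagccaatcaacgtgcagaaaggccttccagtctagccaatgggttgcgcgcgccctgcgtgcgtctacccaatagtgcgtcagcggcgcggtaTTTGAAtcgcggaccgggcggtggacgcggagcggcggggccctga

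Ccnb2 held 2 matches and Ccnb1 none in this window. Of the promoters of all tested genes 11.9% held a match, of those of the lower genes 16.7%, and of the mitotic list 24 of 32 (75%).

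Interferon-stimulated genes were lower for a different arrangement of levels. Of 39 tested effectors 30 were lower and 9 did not pass, with a median of -1.24 in the difference, -1.35 in Vhl cells and -0.10 in WT cells. In the GFP groups 30 of the 39 were higher in Vhl than in WT cells, with a median of 0.90 (17.2% of all tested genes were higher there), whereas with Cre 10 were lower and 3 higher, with a median of -0.36. The lower count of 30 was 24 to 30 with each of the 12 libraries left out, and lowest without WT GFP replicate 3, WT Cre replicate 2 or Vhl GFP replicate 2. Ifit1, which binds foreign RNA, had 16.8, 11.1 and 9.47 CPM in Vhl Cre, against 68.0, 93.2 and 73.2 CPM in Vhl GFP. It had 19.5, 24.3 and 19.3 CPM in WT Cre, against 31.9, 32.2 and 17.8 CPM in WT GFP. Vhl GFP was the high group, without overlap, WT GFP replicate 3 lay below the other WT GFP libraries, and the difference was -2.26 ± 0.45 (SE; edgeR adjusted p = 0.000644). Gbp2, a guanylate-binding protein that attacks pathogen vacuoles, averaged 11.4 CPM in Vhl Cre, 26.2 CPM in Vhl GFP, 14.3 CPM in WT Cre and 14.4 CPM in WT GFP, a difference of -1.18 ± 0.21 (SE). Herc6, the ligase that attaches Isg15 in mice, was at -1.15 ± 0.16 (SE), with means of 6.44 CPM in Vhl Cre, 13.3 CPM in Vhl GFP, 11.4 CPM in WT Cre and 10.5 CPM in WT GFP. Isg15 itself was at -2.16 ± 0.57 (SE; edgeR adjusted p = 0.00733).

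Upstream of them, 15 of 24 tested nucleic acid sensors and interferon factors were lower and 1 higher, with a median of -0.64. Stat2, a transcription factor of the interferon response, was at -1.32, and Zbp1, a sensor of left-handed nucleic acid, at -2.38 ± 0.51 (SE). In MHC class I presentation 7 of 22 tested members were lower and 3 higher. The lower count was 11 when only the 12 libraries entered the fit. B2m, the shared light chain of class I molecules, averaged 600.0 CPM in Vhl Cre, 767 CPM in Vhl GFP, 566 CPM in WT Cre and 545 CPM in WT GFP, a difference of -0.41 ± 0.09 (SE). Bst2, which tethers virus particles, fell with Cre in Vhl cells by 1.14 on the log2 scale, yet its difference of -0.95 ± 0.35 (SE; edgeR adjusted p = 0.052) did not pass. At a value of -0.93 to -0.94 it passed with only the groups compared (adjusted p = 2.37e-05), no filter (1.11e-20) or GC offsets (0.0102), and with 1 library left out the adjusted p was 0.0415 without Vhl GFP replicate 1 and up to 0.119 without Vhl GFP replicate 2.

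The promoters of the 2 effectors with the smallest p are shown with the core of the interferon-stimulated response element, searched as GAAA, any 2 bases and GAAA on both strands and set in capitals.
Herc6 (chr6:57580742-57581041, plus strand): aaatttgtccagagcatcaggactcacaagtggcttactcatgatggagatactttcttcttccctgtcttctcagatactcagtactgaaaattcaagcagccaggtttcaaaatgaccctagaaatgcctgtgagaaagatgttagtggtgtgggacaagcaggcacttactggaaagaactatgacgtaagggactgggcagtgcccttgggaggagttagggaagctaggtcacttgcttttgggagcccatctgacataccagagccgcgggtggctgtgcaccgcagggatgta
Gbp2 (chr3:142620413-142620712, plus strand): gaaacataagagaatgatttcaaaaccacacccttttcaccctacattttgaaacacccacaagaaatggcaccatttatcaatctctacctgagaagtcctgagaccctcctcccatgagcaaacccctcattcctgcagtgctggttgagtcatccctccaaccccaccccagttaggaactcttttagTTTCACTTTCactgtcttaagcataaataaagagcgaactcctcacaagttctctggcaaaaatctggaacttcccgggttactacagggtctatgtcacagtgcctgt

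Gbp2 held 1 match and Herc6 none in this window. The word was in 2.88% of the promoters of all tested genes, in 5.29% of those of the lower genes and in 18 of 32 of the effectors (56.2%).

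The lowest value past the threshold among the named genes belonged to Il1rn (chr2:24336853-24351494, GRCm38), which encodes a secreted antagonist at the interleukin-1 receptor. It had 22.2, 21.2 and 21.9 CPM in Vhl Cre, against 248, 209 and 187 CPM in Vhl GFP. It had 50.8, 51.8 and 59.0 CPM in WT Cre, against 36.5, 42.9 and 36.1 CPM in WT GFP. The Vhl line was the highest of the groups without Cre and the lowest with it, and the 4 groups did not overlap. The difference was -3.79 ± 0.17 (SE; edgeR adjusted p = 2.2e-13), made of -3.30 in Vhl cells and 0.48 in WT cells. Of 14 tested members of the interleukin-1 system 8 were lower and 6 did not pass. Casp4, the caspase that senses bacterial lipid in mice, was at -1.76 ± 0.27 (SE). Of 26 tested chemokines and secreted inflammatory factors 11 were lower and 5 higher. Cxcl5, which attracts neutrophils, averaged 7.45 CPM in Vhl Cre, 30.4 CPM in Vhl GFP, 51.6 CPM in WT Cre and 51.1 CPM in WT GFP, a difference of -2.04 ± 0.18 (SE). Cxcl12, which holds blood cells in their niche, averaged 463 CPM in Vhl Cre, 702 CPM in Vhl GFP, 294 CPM in WT Cre and 272 CPM in WT GFP, so its difference of -0.71 ± 0.07 (SE) left the Vhl line above the WT line in both states. Tnfaip3, an inhibitor of NF-kappaB signalling, went the other way at 1.34 ± 0.10 (SE).

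**Figure D3:**
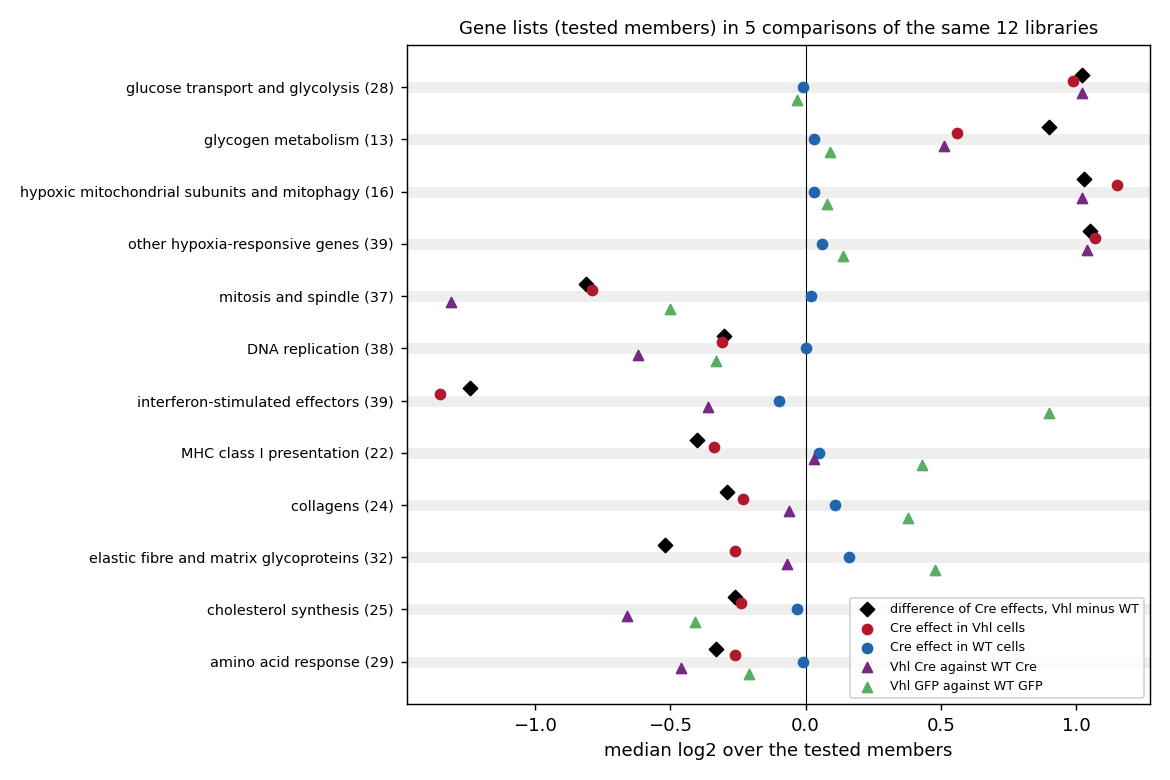
Median log2 value over the tested members of 12 gene lists (number of members in brackets) in 5 comparisons of the same 12 libraries. Diamonds are the difference of Cre effects, circles the Cre effect in each line, triangles the gap between the lines with Cre or with GFP; the hypoxia lists have GFP triangles near 0, the mitosis list has both triangles below 0, and the interferon and matrix lists have GFP triangles above 0.

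Many matrix genes were lower. Of 24 tested collagens 13 were lower and 2 higher, with a median of -0.29, 18 were higher in Vhl GFP than in WT GFP, and 3 rose with Cre in WT cells. Col18a1, which carries endostatin, had 46.8, 49.7 and 52.5 CPM in Vhl Cre, against 210.0, 138 and 169.5 CPM in Vhl GFP. It had 125, 142 and 139 CPM in WT Cre, against 123, 119 and 125 CPM in WT GFP. All Vhl Cre libraries were the lowest, the Vhl GFP libraries were spread widely, and the difference was -1.94 ± 0.17 (SE; edgeR adjusted p = 1.28e-08). Col3a1, a fibrillar collagen of soft tissue, averaged 1627 ± 68.9 CPM in Vhl Cre, 2282 ± 129.8 CPM in Vhl GFP, 1848 ± 139 CPM in WT Cre and 1547 ± 72.1 CPM in WT GFP (SD, n = 3 each), a difference of -0.74 ± 0.10 (SE).

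Of 32 tested elastic fibre and matrix glycoprotein genes 22 were lower and 3 higher, with a median of -0.52 in the difference, -0.26 in Vhl cells and 0.16 in WT cells, where 8 rose with Cre (0.833% of all tested genes did). Eln, the elastin gene, averaged 47.5 CPM in Vhl Cre, 116 CPM in Vhl GFP, 43.6 CPM in WT Cre and 35.8 CPM in WT GFP, a difference of -1.57 ± 0.12 (SE). Fmod, a collagen-binding proteoglycan, was at -1.57 ± 0.10 (SE), with 115 CPM in Vhl Cre, 309 CPM in Vhl GFP, 83.6 CPM in WT Cre and 75.5 CPM in WT GFP. For both genes the Vhl GFP group stood well above the rest. Mfap4, a microfibril-associated protein, fell in Vhl cells by 0.85 and rose in WT cells by 0.68, and its difference was -1.53 ± 0.15 (SE). Enzymes that modify collagen were mixed. Of 20 tested collagen hydroxylases and lysyl oxidases 9 were higher and 4 lower, with a median of 0.22, and Loxl1, a lysyl oxidase, had the lowest value at -0.61. P4ha2, a collagen prolyl hydroxylase subunit, averaged 738 CPM in Vhl Cre, 227 CPM in Vhl GFP, 177 CPM in WT Cre and 165 CPM in WT GFP, a difference of 1.60 ± 0.08 (SE). Plod2, a lysyl hydroxylase, was at 1.57 ± 0.15 (SE) and Loxl2, which cross-links collagen, at 0.87 ± 0.10 (SE).

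For some genes the difference came from the WT line. Dcn, the fibroblast proteoglycan decorin, had 18.8, 18.1 and 19.7 CPM in Vhl Cre, against 21.0, 18.8 and 17.6 CPM in Vhl GFP. It had 19.1, 18.8 and 21.8 CPM in WT Cre, against 10.3, 13.1 and 10.8 CPM in WT GFP. The Vhl groups overlapped, WT GFP was the low group, and the difference of -0.82 ± 0.17 (SE; edgeR adjusted p = 0.0011) was made of -0.02 in Vhl cells and 0.80 in WT cells. Lrrc15, a marker of activated fibroblasts, averaged 57.4 CPM in both Vhl groups, 89.2 CPM in WT Cre and 53.5 CPM in WT GFP, a difference of -0.74 ± 0.19 (SE; edgeR adjusted p = 0.00599). Tmem130, a membrane protein, averaged 7.11 CPM in Vhl Cre, 6.62 CPM in Vhl GFP, 2.61 CPM in WT Cre and 12.6 CPM in WT GFP. Its difference of 2.38 ± 0.27 (SE; edgeR adjusted p = 6.74e-07) was made of 0.10 in Vhl cells and -2.27 in WT cells. In Vhl cells alone the Cre effect of Dcn, Lrrc15 and Tmem130 did not pass the threshold (adjusted p of 0.919, 0.996 and 0.714 by edgeR).

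Eml5 and Mkrn2 were lower with Cre than with GFP in both lines and still had a positive difference. With no group free of both, a fall with Cre and a rise with GFP cannot be told apart here. Mkrn2, a ubiquitin ligase gene that lies on chromosome 6 as Vhl does (chr6:115601902-115622624, GRCm38), had 13.0, 13.1 and 12.3 CPM in Vhl Cre, against 55.8, 54.4 and 49.3 CPM in Vhl GFP. It had 11.7, 12.3 and 12.1 CPM in WT Cre, against 88.9, 85.1 and 87.6 CPM in WT GFP. The Cre groups met at about the same level (log2 0.09 ± 0.12 between them, SE), the GFP groups did not, and the difference was 0.81 ± 0.16 (SE; edgeR adjusted p = 0.000686). Eml5, a microtubule-associated protein, averaged 4.55 CPM in Vhl Cre, 39.6 CPM in Vhl GFP, 4.39 CPM in WT Cre and 76.9 CPM in WT GFP, a difference of 1.01 ± 0.21 (SE). Its Cre effect was -3.12 in Vhl cells and -4.13 in WT cells. Ifrd2 likewise was lower with Cre, by 0.88 in Vhl cells and by 0.98 in WT cells, and its difference of 0.10 ± 0.20 (SE) did not pass.

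Opposite Cre effects, each past the threshold in its own line, were also found at the muscle myosin genes Myh1 and Myh2. Myh1 averaged 32.7 ± 2.13 CPM in Vhl Cre, 12.0 ± 2.30 CPM in Vhl GFP, 5.35 ± 0.562 CPM in WT Cre and 9.03 ± 0.297 CPM in WT GFP (SD, n = 3 each), a difference of 2.20 ± 0.16 (SE). Myh2 averaged 31.8 CPM in Vhl Cre, 6.35 CPM in Vhl GFP, 1.81 CPM in WT Cre and 2.66 CPM in WT GFP, a difference of 2.88 ± 0.14 (SE). Of 7 tested skeletal muscle markers 4 were higher and 3 did not pass. Acta1, skeletal alpha-actin, averaged 339.8 CPM in Vhl Cre, 83.5 CPM in Vhl GFP, 167 CPM in WT Cre and 187 CPM in WT GFP, and was at 2.18 ± 0.14 (SE). Myog, a defining factor of the muscle lineage, averaged 0.0822 CPM in Vhl Cre, 0.0183 CPM in Vhl GFP, 0.0543 CPM in WT Cre and 0.0472 CPM in WT GFP, and 10 of the 14 listed muscle genes were below 1 CPM in all 12 libraries. Of 7 tested epithelial markers 4 were higher and 3 did not pass. Of the 12 listed epithelial genes 6 were below 1 CPM in all 12 libraries, and Epcam averaged 0.176 CPM in Vhl Cre. The keratin gene Krt19 averaged 122 CPM in Vhl Cre, 33.8 CPM in Vhl GFP, 64.8 CPM in WT Cre and 76.5 CPM in WT GFP, a difference of 2.09 ± 0.17 (SE). In the summed levels given above, Vhl GFP lay below the WT groups and Vhl Cre above them for both lists. Krt19 and Acta1 were the largest members of these sums in every group. Krt18 and Tnnt2 likewise had the mean of Vhl GFP below and that of Vhl Cre above both WT groups, but not every member did. Krt7 and Des averaged more in Vhl GFP than in either WT group, and Krt7 was highest in Vhl GFP. Krt8, Krt18 and Krt19 also stand on the mesothelium list, where 3 of 8 tested members were higher and none lower. The part of the cell mixture in these values was not tested. Of 4 tested proximal tubule markers 1 was higher, Lrp2, the endocytic receptor megalin, at 1.85 ± 0.20 (SE), and the list ran down to -1.29 with a median of 0.27.

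Among the genes with the largest values, A2m, a secreted protease inhibitor of the blood plasma, had 28.1, 25.6 and 24.8 CPM in Vhl Cre, against 0.813, 0.543 and 0.446 CPM in Vhl GFP. It had 0.143, 0.260 and 0.446 CPM in WT Cre, against 0.161, 0.351 and 0.134 CPM in WT GFP. It was thus detected mainly in Vhl Cre, with a difference of 5.09 ± 0.57 (SE; edgeR adjusted p = 4.99e-07). Gpr35, a G protein-coupled receptor that is a known HIF target, averaged 32.6 CPM in Vhl Cre, 2.39 CPM in Vhl GFP, 4.30 CPM in WT Cre and 3.67 CPM in WT GFP, a difference of 3.54 ± 0.17 (SE). At the other end, Islr, a surface protein of mesenchymal cells, had 4.11, 4.61 and 5.67 CPM in Vhl Cre, against 32.5, 29.3 and 28.3 CPM in Vhl GFP, and averaged 7.97 CPM in WT Cre and 6.39 CPM in WT GFP, a difference of -2.96 ± 0.21 (SE). Serpina3n, a secreted protease inhibitor, showed that a large gap between the lines can lie beneath a difference. It had 32.9, 31.2 and 30.2 CPM in Vhl Cre, against 64.8, 56.4 and 56.6 CPM in Vhl GFP. It had 1.97, 1.72 and 1.76 CPM in WT Cre, against 0.899, 0.863 and 0.672 CPM in WT GFP. All Vhl libraries were far above all WT libraries, Cre moved the gene down in one line and up in the other, and the difference was -2.05 ± 0.20 (SE; edgeR adjusted p = 6.71e-08).

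Secreted proteases and their inhibitors were mixed, with 12 of 24 tested members lower and 8 higher. Mmp3, a matrix metalloproteinase, averaged 5.64 CPM in Vhl Cre, 13.3 CPM in Vhl GFP, 8.43 CPM in WT Cre and 5.41 CPM in WT GFP, a difference of -1.87 ± 0.17 (SE). Of 18 tested Wnt ligands and antagonists 6 were higher and 4 lower. The 2 secreted antagonists Sfrp1 and Sfrp2 went opposite ways. Sfrp1 averaged 52.7 CPM in Vhl Cre, 113 CPM in Vhl GFP, 61.1 CPM in WT Cre and 48.7 CPM in WT GFP, a difference of -1.43 ± 0.11 (SE). Sfrp2 averaged 32.0 CPM in Vhl Cre, 11.2 CPM in Vhl GFP, 11.8 CPM in WT Cre and 10.7 CPM in WT GFP, a difference of 1.37 ± 0.21 (SE). Of 17 tested genes around the insulin-like growth factors 5 were lower and 3 higher. Igfbp3, the main carrier of these factors in blood, averaged 138 CPM in Vhl Cre, 201 CPM in Vhl GFP, 78.4 CPM in WT Cre and 61.3 CPM in WT GFP, a difference of -0.89 ± 0.11 (SE). Of 25 tested histone genes 6 were higher, among them Hist1h4i at 0.77, and none lower. That is 24% higher, against 10.7% higher and 12.5% lower over all tested genes (23.2% in either direction). Of 24 tested NRF2 targets 8 were lower and 3 higher, with the glutathione transferase gene Gsta4 at -2.21 and the glutathione reductase gene Gsr at -0.58. Contractile and myofibroblast genes had 4 of 20 tested members higher and 1 lower, 25% against 23.2% of all tested genes. The higher count was 2 without WT GFP replicate 1, WT GFP replicate 3 or WT Cre replicate 3, and 9 with the GC correction. Myh11, the smooth muscle myosin, was at 0.68 ± 0.09 (SE).

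Genes of amino acid supply and of cholesterol synthesis were lower in part. Of 29 tested genes of the amino acid response 16 were lower and 1 higher, with a median of -0.33. Slc7a5, the transporter of large neutral amino acids, averaged 31.6 CPM in Vhl Cre, 88.2 CPM in Vhl GFP, 113 CPM in WT Cre and 112 CPM in WT GFP, a difference of -1.50 ± 0.09 (SE; edgeR adjusted p = 2.5e-11). Psat1, an enzyme of serine synthesis, was at -0.98 ± 0.07 (SE). Of 25 tested genes of cholesterol synthesis 11 were lower and 14 did not pass, with a median of -0.26, and 20 were already lower in Vhl GFP than in WT GFP. Dhcr7, which makes cholesterol in the last step, averaged 20.6 CPM in Vhl Cre, 29.6 CPM in Vhl GFP, 38.8 CPM in WT Cre and 35.0 CPM in WT GFP, a difference of -0.67 ± 0.08 (SE). Of 20 tested adipogenic and lipid droplet genes 7 were lower and 3 higher. The desaturase gene Scd1 was at -0.80 ± 0.06 (SE), and Cebpa, a factor of fat cell formation, at -2.70 ± 0.19 (SE), with 1.84 CPM in Vhl Cre, 10.8 CPM in Vhl GFP, 5.49 CPM in WT Cre and 4.97 CPM in WT GFP.

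Clock genes were shifted in both directions, with 8 of 18 tested members higher and 5 lower. Arntl, the clock activator BMAL1, averaged 44.6 CPM in Vhl Cre, 20.8 CPM in Vhl GFP, 37.0 CPM in WT Cre and 36.6 CPM in WT GFP, a difference of 1.09 ± 0.11 (SE). Dbp, an output gene of the clock, averaged 3.17 CPM in Vhl Cre, 9.29 CPM in Vhl GFP, 2.29 CPM in WT Cre and 2.39 CPM in WT GFP, a difference of -1.49 ± 0.18 (SE). In both the Vhl GFP group was the one that stood apart. Ciart, a repressor of the clock, was high in Vhl Cre alone at 14.0 CPM, against 3.18 to 3.31 CPM in the other groups, and its difference was 2.07 ± 0.17 (SE). Immediate early genes had 11 of 24 tested members higher and 3 lower, and 17 of them were lower in Vhl GFP than in WT GFP. Ier3, a survival gene, was at 1.50 ± 0.11 (SE) and Egr1, a zinc finger factor, at -0.71 ± 0.09 (SE). Of 22 tested YAP targets 10 were higher and 5 lower, with Ankrd1, a cardiac ankyrin repeat gene also used as a readout of YAP, at 1.13 ± 0.09 (SE).

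The same kind of difference can be formed in libraries that share nothing with these, as the Cre effect in Vhl/Rassf1a cells minus that in Rassf1a cells. Of those 12 libraries, replicate 1 of Rassf1a GFP and replicate 2 of Vhl/Rassf1a GFP stood apart. Leaving out the first gave 1425 higher and 1387 lower genes and leaving out the second 1429 and 1411, whereas leaving out any 1 of the other 10 gave 1060 to 1215 higher and 954 to 1198 lower genes. With all libraries, 2493 of the tested genes passed there (15%), 1317 higher (7.95%) and 1176 lower (7.1%), and 1555 were higher and 1557 lower without both libraries. Of the 1773 genes higher in Vhl minus WT, 1630 had the same sign in the other lines (91.9%), against 70% of all tested genes. Of the 1773, 856 were called higher there (48.3%) and 8 lower, and those 856 were 65% of the genes called higher in the other lines (59.1% without both libraries). Of the 2073 lower genes, 1851 had the same sign (89.3%), 815 were called lower (39.3%) and 15 higher, and the 815 were 69.3% of the genes called lower there (59.7% without both). Without both libraries 917 of the higher (51.7%) and 927 of the lower genes (44.7%) were called in the same direction. Both libraries also entered the shared estimate of the spread behind the Vhl minus WT tests, which were not rerun without just them. With only its own 12 libraries in the fit, 2193 genes were higher and 2475 lower in Vhl minus WT.

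List medians are given for both pairs of lines. Glycolysis had medians of 1.02 (Vhl minus WT) and 1.10 (Vhl/Rassf1a minus Rassf1a), the hypoxic mitochondrial list 1.03 and 1.58, and the interferon effectors -1.24 and -1.61. Without both libraries the second of these values was 1.11 for glycolysis, 1.57 for the mitochondrial list and -1.31 for the interferon effectors. The mitotic list had -0.81 and -0.32, the collagens -0.29 and -0.02, and the elastic fibre and matrix list -0.52 and -0.02. Here the second value was -0.33, -0.01 and -0.01 without both. The gap between the 2 differences was tested gene by gene, and 506 genes passed (3.05%), 177 higher (1.07%) and 329 lower (1.99%) in Vhl minus WT; without both libraries 382 were higher and 587 lower. Of the mitotic list 10 of 37 were lower in that test (24 without both), of the matrix list 12 of 32 (18 without both), of the collagens 9 of 24 (10 without both). In the interferon effectors the median of that gap was 0.13, and -0.11 without both. Ccnb1 averaged 52.1 ± 1.54 CPM in Vhl/Rassf1a Cre, 64.1 ± 4.08 CPM in Vhl/Rassf1a GFP, 67.6 ± 1.02 CPM in Rassf1a Cre and 64.8 ± 2.15 CPM in Rassf1a GFP (SD, n = 3 each), a difference of -0.36. Vhl itself was at -3.37 ± 0.14 (SE) there and Egln3 at 2.99 ± 0.09 (SE).

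**Figure D4:**
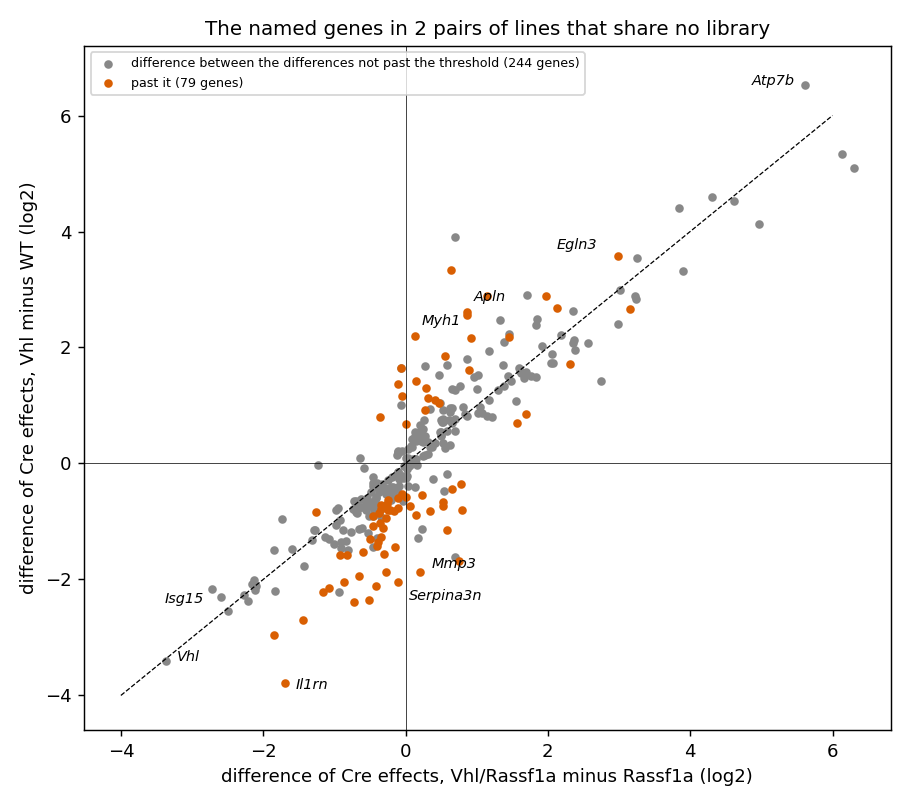
Difference of Cre effects in Vhl minus WT (vertical axis, log2) against that in Vhl/Rassf1a minus Rassf1a (horizontal axis, log2) for the 323 named genes, 1 of which (Scrt2) lies outside the axes; the dashed line marks equal values. Orange points are the 79 genes whose 2 differences differed by the edgeR test; Il1rn and Mmp3 lie below the line, and Apln and Myh1 above it.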

How the data were processed

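Bulk RNA of mouse embryonic fibroblasts was sequenced in 24 libraries, 3 in each of 8 groups, and 12 of them form the comparison described here. The authors deposited raw read counts per Ensembl gene, one table for all libraries. Per the submitters' processing notes, Trimmomatic 0.38, STAR 2.5.2b and the genome build GRCm38 were used; for the counting tool, its annotation and its strand setting the entry is: not given in the sources used here. Overlapping genes may therefore share reads, although the library kit (TruSeq Stranded RNA, per the labels' protocols) marks strand. Symbols and positions came from GENCODE M21, which named 45143 of the 45706 gene IDs.

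The counts were normalised by TMM and tested with edgeR 4.0.16 (R 4.3.3, limma 3.58.1) by its quasi-likelihood test, with 1 mean for each of the 8 groups and a shared estimate of the spread (16 residual degrees of freedom, common biological coefficient of variation 7.73%). Genes passed the filter with a count of at least 10 in enough libraries and 15 in all, which left 16573 genes. P-values were adjusted by Benjamini-Hochberg over all of these, at a threshold of 0.05, and a standard error is the size of the log2 value divided by the square root of its F statistic. CPM values are read counts scaled to a common library size with the TMM factors, computed from the deposited counts. The fit was also run on simulated counts with known changes, which took their levels and spread from the main fit. The outcome of that run is not given here.

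Replicates of a group differed by more than sampling noise (chi-square per degree of freedom 3.5 to 9.72), so none was counted as a duplicate. No batch is given in the labels. The members, the 50 gene lists (1017 genes, 917 tested) and the alternatives were chosen with earlier results of these data known. Genes are named by a rule. It takes Vhl and Rassf1, and the 15 highest and 15 lowest values past the threshold at a mean of 5 CPM or more. It adds up to 6 members of each list by adjusted p, or all members of 5 lists. The 6 highest and 6 lowest Cre effects in WT cells are included. It further takes up to 8 genes whose Cre effect in Vhl cells passed at a log2 size of at least 1, while the difference did not pass. Up to 8 genes with opposite Cre effects, and the 6 highest and 6 lowest gaps between the 2 pairs of lines, complete it. Myog and Loxl1 were named in addition, after their values were seen. Promoter sequences are from RefSeq (GRCm38.p6). Alternatives were DESeq2 1.42.0 size factors and its Wald test, no filter on low counts, only the groups compared, the replicate number as a block, offsets for GC content, a minimum log2 of 1, and each library left out.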

Additional observations from a re-analysis of the deposited data

Results flagged for a closer look

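For 12 genes the difference of Cre effects in Vhl minus WT itself differed from that in Vhl/Rassf1a minus Rassf1a, by an edgeR test of the gap between the 2 differences (log2, adjusted over all tested genes). They are the 6 highest and the 6 lowest of the genes past the threshold at a mean of 5 CPM or more.

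The muscle myosin gene Myh1 had the highest gap, 2.07 (edgeR adjusted p = 4.18e-05), made of 2.20 in Vhl minus WT and 0.13 in Vhl/Rassf1a minus Rassf1a. It had 11.3, 14.0 and 13.2 CPM in Vhl/Rassf1a Cre, against 13.1 to 14.1 CPM in Vhl/Rassf1a GFP, which overlap. Its relative Myh2 had a gap of 1.73, with 2.88 in Vhl minus WT and 1.15 in the other lines. Apln had a gap of 1.77 (edgeR adjusted p = 1.13e-05), with 2.62 and 0.86 in the 2 pairs of lines. It had 122, 121 and 119 CPM in Vhl/Rassf1a Cre, against 79.7, 82.4 and 74.5 CPM in Vhl/Rassf1a GFP, and was thus higher with Cre in both Vhl lines. The potassium channel gene Kcnf1 had a gap of 1.70, Sfrp2 of 1.48 and the endothelial phosphatase gene Ptprb of 1.28.

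Il1rn had the lowest gap, -2.10 (edgeR adjusted p = 4.18e-05), although it was lower in both pairs of lines, at -3.79 and -1.69. It had 14.7, 13.8 and 17.6 CPM in Vhl/Rassf1a Cre, against 43.0, 37.9 and 53.2 CPM in Vhl/Rassf1a GFP. It had 67.1, 66.1 and 77.4 CPM in Rassf1a Cre, against 56.2, 67.7 and 65.8 CPM in Rassf1a GFP. Mmp3 followed at -2.08, with -1.87 in Vhl minus WT and 0.21 in the other lines. Serpina3n had a gap of -1.95, with -2.05 and -0.10, and the muscle-derived protease gene Pamr1 one of -1.71, with -1.14 and 0.58. Enpp2, which makes lysophosphatidic acid, had a gap of -1.59, with -1.87 and -0.27. Prl2c2, a growth factor gene of the prolactin family with near-identical copies, had a gap of -1.59 (edgeR adjusted p = 0.0231), with -0.80 and 0.79. Its call in Vhl minus WT was lost without any 1 of 6 libraries, and without Vhl GFP replicate 1 its value was -0.39 (adjusted p = 0.131).

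Without replicate 1 of Rassf1a GFP and replicate 2 of Vhl/Rassf1a GFP the gaps were 2.12 for Myh1, 1.81 for Apln, 1.71 for Myh2, 1.73 for Kcnf1, 1.54 for Sfrp2, 1.27 for Ptprb, -2.07 for Il1rn, -2.10 for Mmp3, -2.00 for Serpina3n, -1.78 for Pamr1, -1.62 for Enpp2 and -1.47 for Prl2c2. The genes were picked for the size of the gap.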

How the results depend on the processing

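Of the 323 named genes 261 passed the threshold in Vhl minus WT, and none of the 261 changed sign. Of these, 235 passed under every alternative fit and 239 with each of the 12 libraries left out. The minimum log2 of 1 was not applied to these single genes, only to the counts over all genes. The 1773 higher and 2073 lower genes were 1803 and 2033 with DESeq2 size factors, 1860 and 2079 by its Wald test, 1569 to 1715 and 1780 to 1887 with 1 library left out, and 2193 and 2475 with only the groups compared. With offsets for GC content they were 2667 and 2798, and deviations of single libraries from their group correlated with GC at -0.586 to 0.609; the cause was not tested. With these offsets the Cre effect in WT cells gave 298 and 205, Vhl/Rassf1a minus Rassf1a 1999 and 2068, and the gap between the differences 574 and 719. A minimum log2 of 1, by construction, left 579 and 430 in Vhl minus WT, 755 and 415 in Vhl cells, 8 and 20 in WT cells, 580 and 275 between the GFP groups, 1018 and 555 between the Cre groups, 424 and 146 in the other lines and 50 and 93 for the gap. The Cre effect in WT cells gave 156 and 151 with no filter and, with 1 library left out, 51 to 113 higher and 36 to 65 lower genes. Vhl/Rassf1a minus Rassf1a gave 899 and 782 with only the groups compared. The gap gave 124 to 269 higher and 207 to 411 lower genes with 1 library left out, lowest in lower genes without Vhl/Rassf1a Cre replicate 3 (207) or Rassf1a Cre replicate 1 (211), highest without Vhl/Rassf1a GFP replicate 2, and 382 and 587 without both libraries that stood apart. The labels tie replicate numbers to no culture or day. Deviations of the 18 same-numbered pairs correlated at -0.378 to 0.415 (median 0.022), of which 5 were over 0.1. The 36 pairs of different number ran from -0.529 to 0.428 (median -0.0118), with 9 over 0.1. These values cannot show whether same-numbered libraries share a culture or day, since single libraries also deviated with GC content. With the replicate number as a block, 1728 and 1973 genes passed in Vhl minus WT, and 125 and 64 in WT cells. The block with GC offsets gave 2633 and 2750 in Vhl minus WT, 285 and 192 in WT cells, 1969 and 2027 in the other lines, and 557 and 679 for the gap. Leaving a library out leaves 2 in its group, and 3 libraries a group limit the precision of each value.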

Other observations

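The neuronal repressor gene Scrt2 was counted almost only in 1 library. It had 66656 reads (1564 CPM) in Vhl GFP replicate 3, 0 to 10 reads in each of the other 11 libraries of the comparison, and 186 reads in Rassf1a GFP replicate 1. Its difference of -11.85 did not pass (edgeR adjusted p = 0.782), became 1.27 without Vhl GFP replicate 3 (adjusted p = 0.884), and passed with no filter on low counts (adjusted p = 7.07e-12).

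Fxyd6, a regulator of the sodium pump, rose with Cre in Vhl cells by 1.32 on the log2 scale, with a mean of 13.9 CPM in Vhl Cre, 5.58 CPM in Vhl GFP, 1.01 CPM in WT Cre and 0.726 CPM in WT GFP. Its difference of 0.80 ± 0.33 (SE) did not pass by edgeR (adjusted p = 0.0858), but did by the DESeq2 Wald test (0.0174), with no filter (0.00771) and with the replicate block and GC offsets (0.0306). With 1 library left out it was 1.13 without WT GFP replicate 1 (adjusted p = 0.0132), 1.07 without WT Cre replicate 2 (adjusted p = 0.0299) and 0.44 without WT GFP replicate 2 (adjusted p = 0.454).

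Xist had 196, 144 and 173 CPM in Vhl Cre, against 263, 269.7 and 255 CPM in Vhl GFP. The Y-linked genes Eif2s3y and Ddx3y had differences of 0.54 (edgeR adjusted p = 0.0321) and 0.48 (adjusted p = 0.0388), and the calls were lost with most single libraries left out, with an adjusted p of up to 0.0901 for Eif2s3y without Vhl Cre replicate 1 and 0.114 for Ddx3y without WT Cre replicate 2. The values themselves stayed at 0.49 to 0.60 and 0.42 to 0.55, and with only the groups compared the adjusted p was 0.000342 and 0.000404, with GC offsets 3.86e-06 and 0.000977. Of 9 tested sex-linked genes these 2 passed, and Xist, at -0.65, did not (edgeR adjusted p = 0.0745), although it did with only the groups compared (0.00391), with GC offsets (0.00138) and with no filter (5.32e-12). Vhl GFP was the group with the highest Xist level, and the sexes of the embryos behind the libraries are not analysed here.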
